A study of Yarrowia lipolytica with 4 samples.

Results

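The genes described here belong to 2 protein families that hold many NAD(P)H-dependent reductases and dehydrogenases, plus 1 single gene, in the oleaginous yeast Yarrowia lipolytica. They were chosen by 8 text terms for such families, searched in the gene descriptions of the deposited table, and 30 of its 6797 genes matched. RNA was sequenced from 2 libraries of strain F19 and 2 libraries of strain WLH, the control. Both go back to PO1f, a common laboratory host that is auxotrophic for leucine and uracil. F19 came out of a search of a genome-wide CRISPR interference library for tolerance to furfural and acetic acid; in such a library each strain carries a guide RNA that blocks transcription of 1 gene through a Cas9 that cannot cut. Which gene the guide of F19 targets is not known here. Cultures were kept at 30 °C for 48 h in leucine-free synthetic medium containing 2.4 mM furfural. No library without furfural was analysed here, so the values say how the strains differ under furfural and not how a gene responds to it. Each strain is 1 line. The labels leave it unsaid whether the 2 libraries of a strain are separate cultures; the p-values then reflect the spread between libraries alone, and that spread may be technical.

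Furfural, an aldehyde, forms from pentose sugars when plant material is hydrolysed. Yeasts such as Saccharomyces cerevisiae convert it to the less toxic furfuryl alcohol with reductases that draw on NADH or NADPH, among them members of the aldo-keto reductase and alcohol dehydrogenase families. Aldo-keto reductases form a barrel-shaped fold that binds NADPH and reduce aldehydes, ketones and sugars to alcohols; the domain is named NADP-dependent oxidoreductase in protein databases. The chaperonin 10-like fold is shared by the small mitochondrial chaperonin, which helps newly imported proteins to fold, and by the catalytic part of zinc-dependent alcohol dehydrogenases and their relatives, which pass electrons between alcohols or aldehydes and NAD(P).

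Of the 8 terms, 3 matched a row. The description NADP-dependent oxidoreductase covered 17 genes, chaperonin 10-like covered 12 and NAD(P)-binding covered 1, and the other 5 terms matched 0. An ortholog number (KO) was given for 14 of the 30 genes. Against the label, 2 of the 30 are no reductases of this kind by their ortholog numbers. BKA90DRAFT_133263 carries that of the mitochondrial chaperonin 10 itself, and at 390 exonic bases it is the shortest of the 12 chaperonin 10-like genes, of which the other 11 span 1023 to 1616 bases. BKA90DRAFT_136847, the only NAD(P)-binding gene, carries the number of the enzyme that completes the sirohaem ring, a cofactor of sulfite reductase.

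The libraries held 18268878 to 24165223 counts, and 6414 genes had enough counts to be tested with edgeR's quasi-likelihood test. The strains differed widely: 51.4% of the tested genes passed an adjusted p of 0.05, 25.9% higher and 25.5% lower in F19. These shares rest on both WLH libraries: 961 genes rose and 958 fell without WLH replicate 1, and 810 rose and 860 fell without WLH replicate 2. Scaling by library totals alone called 2419 genes higher and 1066 lower, against 1659 and 1635 under TMM scaling, and moved the median log2 fold change over all genes from 0.01 to 0.24. Every direction below is stated relative to TMM. None of the called genes among the 30 changed direction under library totals, median-ratio or upper-quartile scaling or in limma on FPKM.

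Of the 30 genes, 29 passed the filter on low counts, and the one that did not, BKA90DRAFT_113610, had 0 and 1 counts in the F19 libraries and 8 and 6 in the WLH libraries. Among the 29, 11 fell and 4 rose in F19 and 14 did not pass. This is 37.9% lower and 13.8% higher, beside 25.5% and 25.9% of all tested genes. Of these 29, 9 fell at least 2-fold, where 9.18% of all tested genes fell that far. Rises of at least 2-fold were found for 3, 10.3%, beside 10.4% of all tested genes. Their median log2 fold change was -0.22, also with the gene at 0 in F19 set to its bound, and that of all tested genes was 0.01. The members' median was -0.40 without WLH replicate 2, -0.37 with no filter on counts and 0.016 with library totals, where the median of all genes was 0.24. The CPM of the strains did not overlap for 22 of the 30, with F19 below in 15 and above in 7, where F19 was below for 39.7% and above for 39.9% of all tested genes. The number of rises was 7 without F19 replicate 1 and 7 with library totals, where 9 fell. The genes were grouped with results of these data known, so these counts describe them and test nothing.

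**Figure D1:**
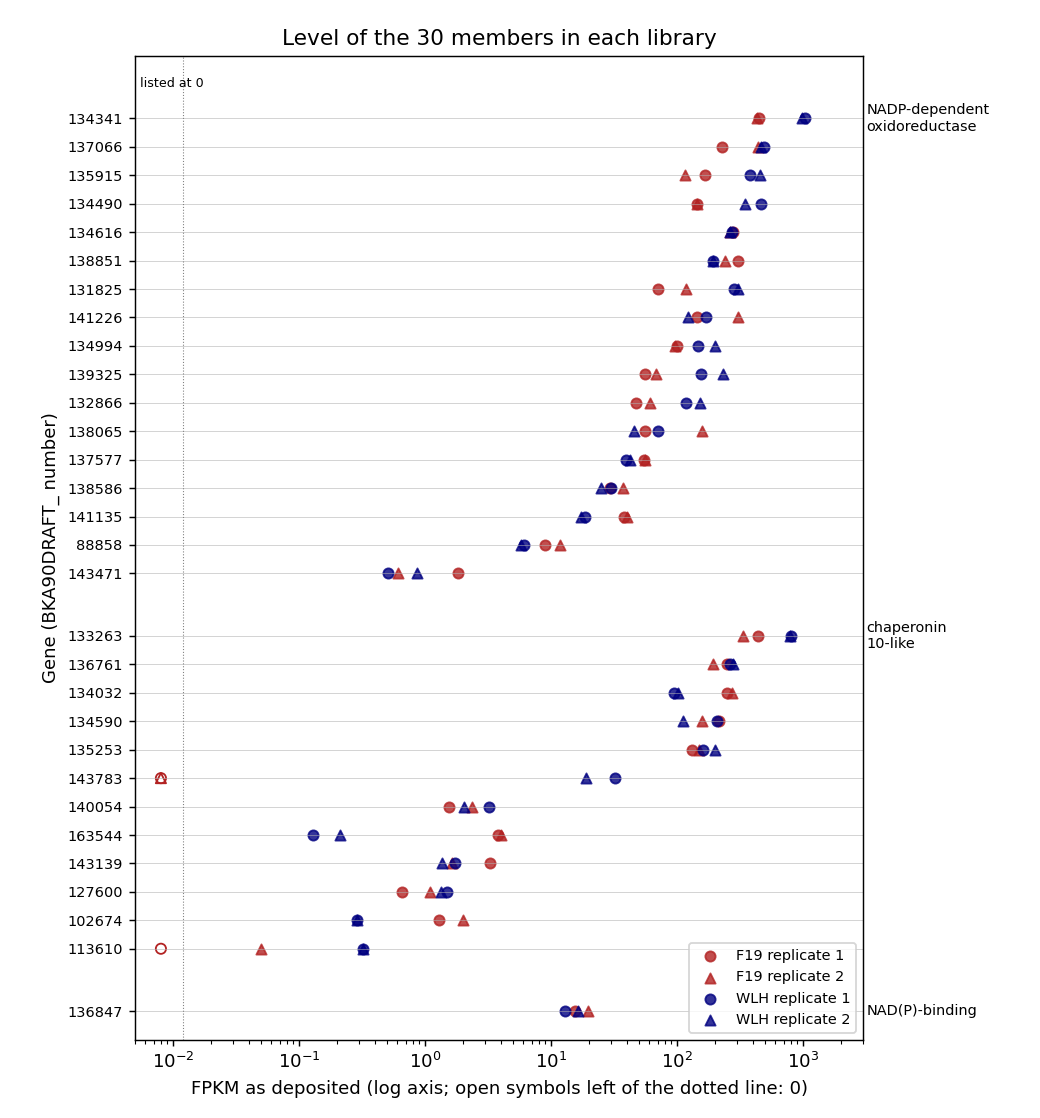
Deposited FPKM of each of the 30 genes in the 4 libraries (horizontal log axis), grouped by family and ordered by mean level; red symbols are F19 and blue symbols WLH, circles replicate 1 and triangles replicate 2, and open symbols left of the dotted line stand for a value of 0. Both red symbols lie left of both blue ones for 8 NADP-dependent oxidoreductases with over 90 FPKM on average, of which 7 were called lower, and BKA90DRAFT_143783 is at 0 in both F19 libraries.

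Levels between genes are given as FPKM, the authors' counts scaled by exon length and library total, and differences between strains as CPM scaled with TMM. The NADP-dependent oxidoreductases were the more abundant family, with a median of 135.9 FPKM over the 4 libraries and 10 of 17 genes at 100 FPKM or more. The chaperonin 10-like family had a median of 7.50 FPKM and split into 5 genes at 100 FPKM or more, 1 at 12.7 and 6 under 10. The median of all genes in the table was 33.9 FPKM. Together the 30 genes took 0.372% and 0.417% of the gene counts in the F19 libraries and 0.566% and 0.552% in the WLH libraries. The NADP-dependent oxidoreductases carried most of that gap. Their summed level was 2178 and 2749 CPM in F19 and 4712 and 4573 CPM in WLH, a mean 1.88 times as high in WLH. The chaperonin 10-like genes summed to 1197 and 1123 CPM in F19 and 1447 and 1372 CPM in WLH, 1.22 times as high in WLH. Within these sums the mitochondrial chaperonin had means of 139 CPM in F19 and 338 CPM in WLH. BKA90DRAFT_134032 went the other way, with 343 and 152 CPM. As shares of gene counts without TMM, this family took 0.132% and 0.120% in F19 and 0.133% and 0.127% in WLH. The NADP-dependent oxidoreductases took 0.239% and 0.295% in F19 and 0.432% and 0.424% in WLH. All of these levels are relative to the RNA of a whole culture, so less RNA of a gene per cell and fewer cells with it cannot be told apart.

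Among the 17 NADP-dependent oxidoreductases, the aldo-keto reductases of this set, 7 fell, 1 rose and 9 did not pass. This is 41.2% lower and 5.88% higher, beside 25.5% and 25.9% of all tested genes. All 7 falls were of at least 2-fold, where 9.18% of all tested genes fell that far, and ran from 2.09-fold to 3.64-fold. The 7 had WLH means of 134 to 1012 FPKM and F19 means of 54.4 to 439 FPKM. Over the 4 libraries their means ran from 94.4 to 725.6 FPKM, beside the family median of 135.9 FPKM. BKA90DRAFT_137066, BKA90DRAFT_134616, BKA90DRAFT_138851 and BKA90DRAFT_141226 lay above that median as well and were not called. Each of the 7 calls held when any single library was left out, with adjusted p up to 0.0224.

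The most abundant of the 30 genes was BKA90DRAFT_134341 (scaffold ML755983.1, 369465 to 370658), a NADP-dependent oxidoreductase with no ortholog number, above 97.1% of all genes by mean FPKM. F19 had 485 and 484 CPM of it, and WLH had 1359 and 1268 CPM. The libraries of a strain lay close together and the strains far apart, a log2 change of -1.44 ± 0.15 (SE; edgeR adjusted p = 0.00073). Per length it supplied 20.5% and 16.7% of the summed FPKM of its family in F19 and 26.9% and 25.6% in WLH.

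BKA90DRAFT_134490 (ML755984.1, 261804 to 262896) followed the same pattern at a lower level, with 144 and 148 CPM in F19 and 558 and 408 CPM in WLH. The WLH libraries differed from each other here, but both lay well above F19, and the fold change was 3.30-fold lower in F19 (adjusted p = 0.000737). BKA90DRAFT_131825 (ML756080.1, 24880 to 25821) had 61.0 and 104 CPM in F19 against 289 and 310.01 CPM in WLH. Its F19 libraries were 1.70 times apart, and the strains did not overlap (log2 change -1.86 ± 0.24, SE; adjusted p = 0.00134). BKA90DRAFT_132866 (ML755978.1, 234247 to 235322) had 46.5 and 62.0 CPM in F19 and 137 and 177 CPM in WLH, and was 2.90-fold lower in F19 (adjusted p = 0.00111). None of these 3 has an ortholog number or a term in the table, so their substrates are not known from the files.

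A shared ortholog number, K18097, marks 5 of the 17 genes as relatives of GCY1, which in Saccharomyces cerevisiae is an NADP-dependent aldo-keto reductase that oxidises glycerol to dihydroxyacetone and also reduces aldehydes. These 5 genes did not move together: 3 fell and 2 did not pass. BKA90DRAFT_135915 (ML755991.1, 197100 to 198141) fell most in absolute level, with 435 and 512 CPM in WLH against 158 and 112 CPM in F19. Both F19 values were under all WLH values, and the log2 fold change was -1.81 ± 0.20 (SE; adjusted p = 0.000832). BKA90DRAFT_139325 (ML756017.1, 96179 to 97108) had 47.5 and 59.1 CPM in F19 and 156 and 232 CPM in WLH. Its 3.64-fold fall (adjusted p = 0.000926) was the largest of the family, next to a 3.63-fold fall of BKA90DRAFT_131825 that differs from it by far less than its error. BKA90DRAFT_134994 (ML755987.1, 45606 to 46591) fell 2.09-fold, from 159 and 214 CPM in WLH to 89.9 and 88.6 CPM in F19 (adjusted p = 0.00236).

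The remaining pair of K18097 genes stayed under the threshold. BKA90DRAFT_134616 (ML755985.1, 81223 to 82157) had 239 and 230.4 CPM in F19 and 281 and 266 CPM in WLH, a log2 change of -0.22 ± 0.13 (SE; adjusted p = 0.18). BKA90DRAFT_138851 (ML756012.1, 152256 to 153228) had 272 and 218 CPM in F19 and 203 and 201 CPM in WLH, a log2 change of 0.28 ± 0.15 (SE; adjusted p = 0.158). It passed as higher with library totals (adjusted p = 0.0291), without F19 replicate 2 (0.0299) and in limma on FPKM. As a result the make-up of the group differed between the strains. In both WLH libraries BKA90DRAFT_135915 was the most abundant of the 5 per length, with 33.2% and 33.9% of their summed FPKM. In both F19 libraries it was the third, with 18.3% and 14.7%, behind BKA90DRAFT_138851 and BKA90DRAFT_134616, which exchanged the first place between the libraries. The summed level of the 5 was 807 and 708 CPM in F19 and 1234 and 1425 CPM in WLH. How far reads shared by these relatives were split among them was not tested, since no sequence of the genes was used here.

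**Figure D2:**
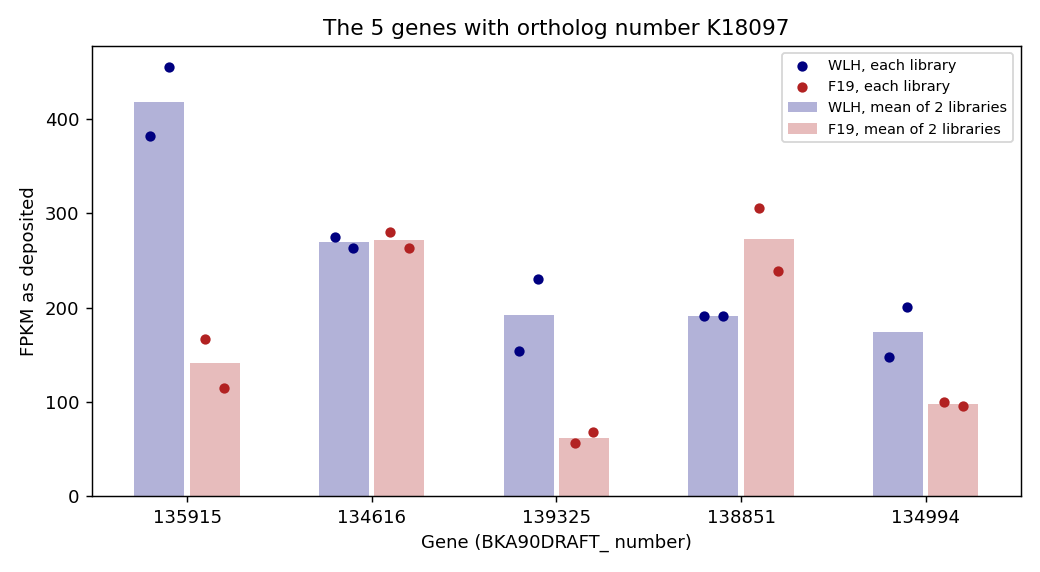
Deposited FPKM of the 5 genes that share ortholog number K18097, ordered by their mean in WLH; bars are means of 2 libraries and points the single libraries, blue for WLH and red for F19. BKA90DRAFT_135915, BKA90DRAFT_139325 and BKA90DRAFT_134994 have both red points under both blue points, and BKA90DRAFT_138851 and BKA90DRAFT_134616 supply most of the F19 total.

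Among genes of the family with a mean of at least 10 FPKM, the F19 libraries disagreed most for 3. BKA90DRAFT_137066 (ML755998.1, 220475 to 221753), annotated as a D-xylose reductase, which turns xylose into xylitol, had 264 and 525 CPM in F19 and 678 and 636 CPM in WLH. Both F19 libraries were below WLH, but they were 1.99 times apart, and the log2 fold change of -0.74 ± 0.30 (SE) did not pass (adjusted p = 0.074). It passed as lower without F19 replicate 2 (adjusted p = 0.00119) and in DESeq2 (0.0205). BKA90DRAFT_141226 (ML756040.1, 4331 to 5692), whose terms are those of potassium channel beta subunits, a branch of the aldo-keto reductases, had 178 and 392 CPM in F19 and 250.4 and 181 CPM in WLH. BKA90DRAFT_138065 (ML756006.1, 76824 to 78024), with the ortholog number of a pyridoxine dehydrogenase of vitamin B6 metabolism, had 61.3 and 177 CPM in F19 and 92.3 and 59.5 CPM in WLH. In each of the 3 the higher value was that of F19 replicate 2, and for the last 2 genes the strains overlapped (adjusted p = 0.364 and 0.259 in edgeR). Both passed as higher without F19 replicate 1, with a log2 fold change of 0.86 (adjusted p = 0.0123) for BKA90DRAFT_141226 and 1.22 (0.00721) for BKA90DRAFT_138065.

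BKA90DRAFT_141135 (ML756038.1, 93884 to 94984) was the only NADP-dependent oxidoreductase that rose. It had 37.8 and 41.7 CPM in F19 and 22.5 and 20.5 CPM in WLH, a log2 change of 0.88 ± 0.15 (SE; adjusted p = 0.00303), and the call held without any single library. It has no ortholog number. Of the other genes that did not pass, BKA90DRAFT_137577, placed in the ascorbate and aldarate pathway, had 53.5 and 55.8 CPM in F19 against 45.7 and 48.9 CPM in WLH (adjusted p = 0.195). BKA90DRAFT_138586, also with a potassium transport term, had 31.3 and 40.9 CPM in F19 and 38.7 and 31.8 CPM in WLH, which overlapped. The lowest genes of the family were BKA90DRAFT_88858, at 8.12 FPKM on average (log2 fold change 0.56 ± 0.24, SE; adjusted p = 0.0888), and BKA90DRAFT_143471, at 0.95 FPKM with 43 and 14 counts in F19 and 15 and 19 in WLH. BKA90DRAFT_88858 and BKA90DRAFT_137577 passed as higher with library totals (adjusted p = 0.0261 and 0.0228).

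**Figure D3:**
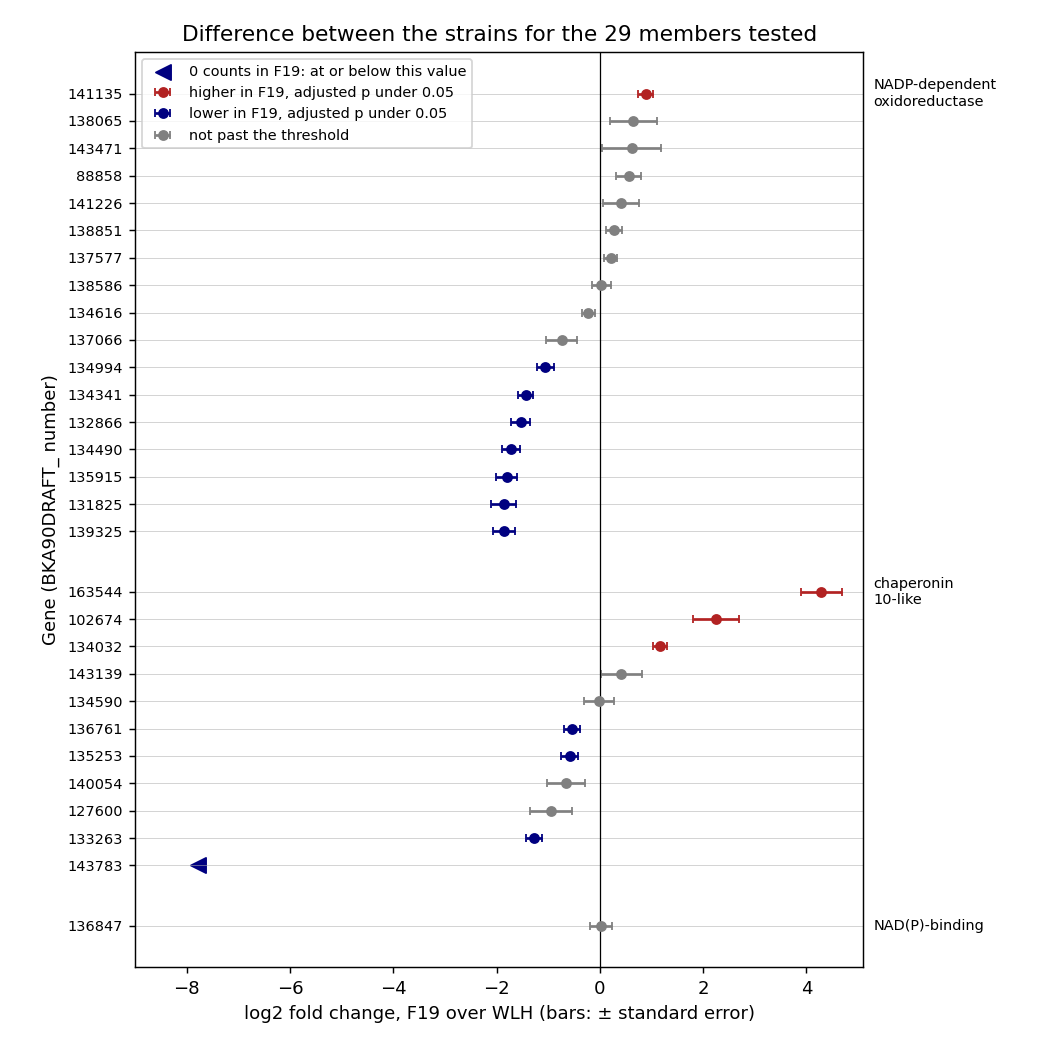
Log2 fold change of F19 over WLH with its standard error for the 29 genes tested, by family; red marks genes that rose, blue genes that fell at an adjusted p under 0.05 and grey genes that did not pass, and the triangle gives the upper bound for the gene with 0 counts in F19. The 7 falls of the NADP-dependent oxidoreductases lie between -1.06 and -1.86, and the chaperonin 10-like genes spread more widely to both sides.

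Of the 12 chaperonin 10-like genes, 11 were tested: 4 fell, 3 rose and 4 did not pass. This is 36.4% lower and 27.3% higher, beside 25.5% and 25.9% of all tested genes. Falls of at least 2-fold were found for 2, 18.2% of those tested, and rises of that size for 3, 27.3%, beside 9.18% and 10.4% of all tested genes. The median log2 fold change was -0.54, and -0.27 without the mitochondrial chaperonin. That chaperonin, BKA90DRAFT_133263 (ML755979.1, 448404 to 449008), was the most abundant of the 12, with 157 and 122 CPM in F19 and 344 and 331 CPM in WLH. The strains did not overlap, and the log2 fold change was -1.28 ± 0.16 (SE; adjusted p = 0.0012).

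The other abundant genes of the fold carry dehydrogenase annotations or none. BKA90DRAFT_135253 (ML755988.1, 80155 to 81770) has the ortholog number of the glutathione-dependent formaldehyde dehydrogenase, the enzyme that removes formaldehyde and also acts on longer alcohols. It had 192 and 227 CPM in F19 and 281 and 348 CPM in WLH, 1.50-fold lower in F19 (adjusted p = 0.0215). Adjusted p rose to 0.0592 when F19 replicate 1 was left out, to 0.157 when WLH replicate 2 was left out and to 0.105 with library totals, which ended the call each time. BKA90DRAFT_136761 (ML755997.1, 32008 to 33194), with the number of sorbitol dehydrogenase, which also interconverts xylitol and xylulose, had 268 and 212 CPM in F19 and 340 and 356 CPM in WLH. It was 1.45-fold lower (adjusted p = 0.0253), and the call ended when F19 replicate 2 (adjusted p = 0.063), WLH replicate 1 (0.108) or WLH replicate 2 (0.14) was left out and with library totals (0.159).

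BKA90DRAFT_134590 (ML755985.1, 38135 to 39392), with the number of an NAD-dependent alcohol dehydrogenase, had 247 and 185 CPM in F19 and 285 and 150.3 CPM in WLH. The WLH libraries were 1.89 times apart and enclosed both F19 values, so no difference could be seen at this spread (adjusted p = 0.975). BKA90DRAFT_134032 (ML755982.1, 313940 to 315362), which has no ortholog number, was the abundant gene of the fold that rose. It had 321 and 365 CPM in F19 and 148 and 157 CPM in WLH, a log2 change of 1.17 ± 0.14 (SE; adjusted p = 0.000966). With that rise its mean level went from 98.6 FPKM in WLH to 260.4 FPKM in F19, above the other genes of the fold in F19 except the chaperonin.

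BKA90DRAFT_143783 (ML756123.1, 1344 to 2487) carries terms for alcohol dehydrogenase activity, zinc binding and the mitochondrial matrix. Neither F19 library had a count of it (0 and 0), where the WLH libraries had 883 and 395 counts, or 39.9 and 23.4 CPM. With 3 counts per library as the floor for F19, it was at least 219-fold lower there, which covers counting error only. The only other gene of its scaffold in the table, BKA90DRAFT_171652, likewise had 0 and 0 counts in F19, and it had 69 and 54 counts in WLH. In the whole table, 3 genes had at least 10 counts in each WLH library and 0 in each F19 library, and these 2 were among them. Whether the scaffold is present in the genome of F19 was not tested.

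The genes of the fold under 10 FPKM held the steepest rises. BKA90DRAFT_163544 (ML756021.1, 31092 to 32375) had 96 and 97 counts in F19 and 4 and 5 in WLH, or 4.48 and 4.82 CPM against 0.181 and 0.296 CPM. Its log2 fold change was 4.29 ± 0.40 (SE; adjusted p = 0.000583), and the call held without any single library. BKA90DRAFT_102674 (ML756042.1, 53054 to 54568), with alcohol dehydrogenase terms, had 33 and 49 counts in F19 and 9 and 7 in WLH, a log2 change of 2.26 ± 0.45 (SE; adjusted p = 0.00573). Leaving out either WLH library ended that call (adjusted p = 0.0597 without replicate 1 and 0.0554 without replicate 2). The remaining low genes did not pass. BKA90DRAFT_127600 had 13 and 21 counts in F19 and 37 and 25 in WLH (log2 fold change -0.94 ± 0.41, SE; adjusted p = 0.0898). BKA90DRAFT_140054, also numbered as an alcohol dehydrogenase, and BKA90DRAFT_143139 overlapped between the strains, with 2.29 and 2.00 FPKM on average.

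The single NAD(P)-binding gene, BKA90DRAFT_136847 (ML755997.1, 162011 to 162915), had 12.8 and 16.5 CPM in F19 and 12.8 and 16.1 CPM in WLH. The libraries of the strains overlapped (log2 fold change 0.02 ± 0.21, SE; adjusted p = 0.934).

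The 30 genes lay on 27 scaffolds, of which 3 held a pair. None of the pairs lay within 10 kb of each other, so the families form no tandem clusters in this assembly. The genes beside them were looked at next, a choice made after their values were seen. BKA90DRAFT_135915 is the last of 4 neighbouring genes on ML755991.1, all on the plus strand, that fell together. Upstream of it lie BKA90DRAFT_135910, a hypothetical protein 14.3-fold lower, BKA90DRAFT_135911, the tyrosine-degrading 4-hydroxyphenylpyruvate dioxygenase, 25.3-fold lower, and the cytochrome P450 BKA90DRAFT_135913, 28.9-fold lower in F19 (edgeR adjusted p = 0.000304, 0.000172 and 0.000151). The reductase fell less than these 3, 3.50-fold, and was the most abundant of the 4, at 279.6 FPKM on average. The next genes on either side, BKA90DRAFT_135909 and BKA90DRAFT_135918, did not pass (adjusted p = 0.0845 and 0.053).

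**Figure D4:**
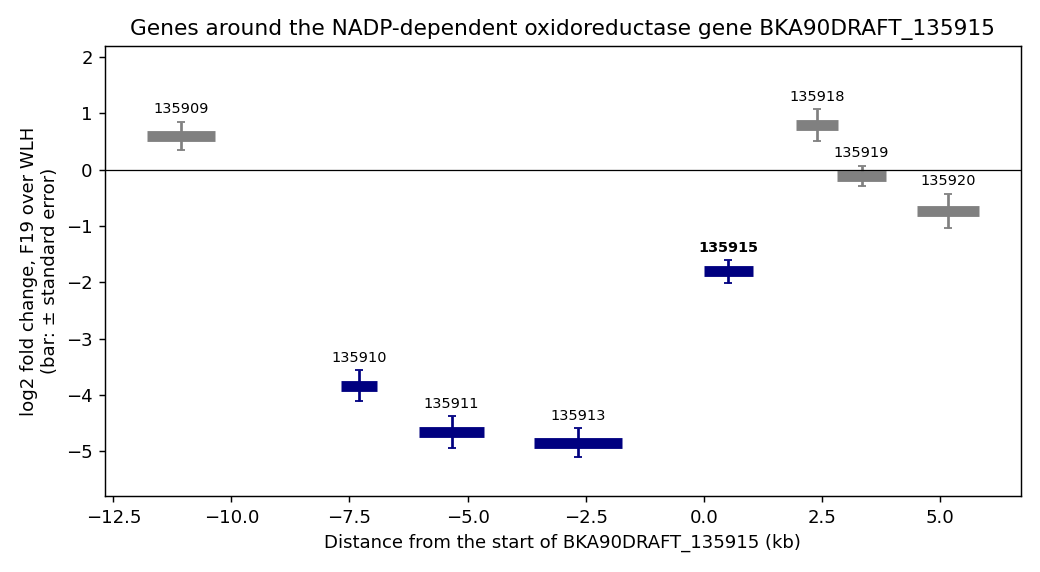
Log2 fold change of F19 over WLH for 8 neighbouring genes, plotted against the distance in kb from the start of BKA90DRAFT_135915; horizontal bars span each gene, vertical bars are ± standard error, blue marks genes that fell at an adjusted p under 0.05 and grey those that did not pass. The 4 blue genes are adjacent, and BKA90DRAFT_135915 shows the smallest fall among them.

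For 2 of the 4 genes that rose, the genes on both sides rose as well. Beside BKA90DRAFT_163544, the luciferase-like gene BKA90DRAFT_114860 rose 6.34-fold (edgeR adjusted p = 0.00262), with 47 and 69 counts in F19 and 9 and 8 in WLH. On its other side, the alpha/beta hydrolase BKA90DRAFT_139673 rose 3.26-fold (edgeR adjusted p = 0.0376). The latter had 20.4 and 56.3 CPM in F19 and 16.8 and 6.45 CPM in WLH, and its call ended when F19 replicate 2 (adjusted p = 0.199) or WLH replicate 2 (0.2) was left out. Beside BKA90DRAFT_141135, the hypothetical genes BKA90DRAFT_130775 and BKA90DRAFT_164252 rose 2.24-fold and 4.25-fold (adjusted p = 0.037 and 0.00211), and the first of these calls ended when F19 replicate 1 (0.139), WLH replicate 1 (0.0596) or WLH replicate 2 (0.199) was left out. BKA90DRAFT_130775 had 73 and 52 counts in F19 and 37 and 16 in WLH, and BKA90DRAFT_164252 had 101 and 130 against 29 and 22. The latter lies 31 bases from BKA90DRAFT_141135 on the other strand, and whether they share reads was not tested. Of the 21 tested genes that flank the 11 fallen members, 7 fell and 4 rose, beside 25.5% and 25.9% of all tested genes. The 8 that flank the 4 risen members gave 6 rises and 1 fall. Beside the 14 members not called, 9 of 25 rose and 3 fell.

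The supply of NADPH, on which aldo-keto reductases draw, was read from a list of 12 genes chosen by ortholog number or description: 4 fell, 0 rose and 8 did not pass, beside 25.5% lower and 25.9% higher among all tested genes. The median log2 fold change of the list was 0.07 and that of all tested genes 0.01. Rises and falls together, 6 genes of the list were called with library totals and 5 in limma on log2(FPKM + 1). With median-ratio and with upper-quartile scaling 4 were called, as under TMM. Directions were not counted in these other fits, so the 0 rises are those under TMM. The first 2 dehydrogenases of the pentose phosphate pathway, the main source of NADPH in this yeast, were both lower in F19. Glucose-6-phosphate dehydrogenase, BKA90DRAFT_137277, had a log2 fold change of -1.14 (adjusted p = 0.00262) and 6-phosphogluconate dehydrogenase, BKA90DRAFT_132847, of -1.15 (adjusted p = 0.00318). BKA90DRAFT_82448, 1 of 2 genes numbered as the lactonase between them, had -1.66 (adjusted p = 0.000367), and the other, BKA90DRAFT_140278, did not pass (0.07, adjusted p = 0.685). The NADP-dependent isocitrate dehydrogenase BKA90DRAFT_78350 did not pass (log2 fold change 0.08, adjusted p = 0.799). The fourth fall was that of BKA90DRAFT_115825, described as a 6-phosphogluconate dehydrogenase but numbered as ketol-acid reductoisomerase of branched-chain amino acid synthesis, with -0.69 (adjusted p = 0.0269; 0.183 without WLH replicate 1 and 0.0948 without WLH replicate 2). Among the 8 others, BKA90DRAFT_141064 is described as an ATP-NAD kinase-like protein but numbered as a sphingosine kinase, so the list holds genes that do not supply NADPH.

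Among 11 genes described as aldehyde or alcohol dehydrogenases outside the 30, 10 were tested, and 3 fell, 0 rose and 7 did not pass, beside 25.5% lower and 25.9% higher among all tested genes. The median was 0.11. The number called was 6 with library totals and 6 in limma on log2(FPKM + 1), which counts rises and falls together. With median-ratio and with upper-quartile scaling it was 3, as under TMM. Directions were not counted in these other fits, so the 0 rises are those under TMM. The aldehyde dehydrogenase BKA90DRAFT_143368, of a family that oxidises aldehydes to acids, had a log2 fold change of -1.33 (adjusted p = 0.000761). The other 2 falls were those of BKA90DRAFT_132874 and BKA90DRAFT_139077. The first, only described as a transcriptional effector of an alcohol dehydrogenase, had -1.02 (edgeR adjusted p = 0.00134). The second, a semialdehyde dehydrogenase of amino acid synthesis, had -0.61 (edgeR adjusted p = 0.0253). The last call ended when F19 replicate 1 (adjusted p = 0.0502), WLH replicate 1 (0.101) or WLH replicate 2 (0.149) was left out. The abundant alcohol dehydrogenase 2, BKA90DRAFT_135052, did not pass (log2 fold change 0.33, adjusted p = 0.198). BKA90DRAFT_136522 and BKA90DRAFT_140242, which did not pass either, are described only as alcohol dehydrogenase-like. Like BKA90DRAFT_132874 they were matched by wording, so the counts are not those of dehydrogenases alone. All 3 thiol reductases, which use NADPH to keep glutathione and thioredoxin reduced, fell: glutathione reductases BKA90DRAFT_135033 (-1.98, adjusted p = 0.000371) and BKA90DRAFT_143148 (-0.76, adjusted p = 0.0474) and thioredoxin reductase BKA90DRAFT_137880 (-0.85, adjusted p = 0.00435). The call of BKA90DRAFT_143148 ended when F19 replicate 1 (adjusted p = 0.128), WLH replicate 1 (0.1) or WLH replicate 2 (0.251) was left out.

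The authors' deposited table of genes they called significant listed 12 of the 30, where it listed 18.3% of all genes. These 12 were the same genes that passed here with at least a 2-fold change. Of these, the authors' deposited table gave 9 as lower and 3 as higher in F19, and the smallest absolute log2 fold change of any listed gene was 1.0006, so the smaller changes of BKA90DRAFT_141135, BKA90DRAFT_135253 and BKA90DRAFT_136761 are not among its rows.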

How the data were processed

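Poly(A) RNA of 4 libraries was sequenced as paired ends, per the labels' protocols; a step that keeps strand information is not described in them. The submitters' processing notes list HISAT2 2.2.1, HTSeq 0.6.1, cutadapt 1.9.1 and DESeq2. The sources used here give neither settings nor a genome build, and positions are on the scaffolds that the authors' table names. The authors deposited raw counts and FPKM for 6800 features, per the file headers, and count over exonic length and library total gives each FPKM to within 0.005. A second table by the authors gives, for genes they called, counts, FPKM, a mean normalised signal, a linear fold ratio, a log2 fold change with its error, a test score and a p-value. The column of WLH replicate 1 has a letter I for the digit and was matched by its remaining name.

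Of the features, 3 construct rows that name no gene (0.135% to 0.387% of counts) were left out. The test on counts was that of edgeR 4.0.16, run under R 4.3.3 (filterByExpr, TMM factors of 0.917 to 1.10, glmQLFit and glmQLFTest, two-sided, strain as the only term), with Benjamini-Hochberg values over all 6414 genes tested and a threshold of 0.05. A standard error here is the size of the log2 fold change over sqrt(F). Alternatives were other scalings, filters, DESeq2 1.42.0, limma 3.58.1 on log2(FPKM + 1) and log2(FPKM + 0.1) with a mean FPKM of at least 1 or no filter, a robust fit, a block for replicate number, and fits without 1 library at a time. On simulated counts for F19 against WLH with 200 of 6414 genes changed, edgeR recovered 89% of 2-fold and 97% of 4-fold changes. Of its calls there, 5.1% were false. The simulation gave all genes the same dispersion and changed far fewer of them than the 51.4% called here. Its shares therefore may not hold for these data. The members, the lists and the alternatives were chosen with earlier results of these data known. The naming rule took, per family, up to 3 rises and 3 falls past the threshold with non-overlapping CPM and at least 10 FPKM in a strain, the most abundant genes, genes at 0 in a strain, and members within 10 kb of a named one; it gave 12 names, and the other members are named because all 30 are accounted for. Genes outside the 30 are named from the lists, or after their values were seen where they flank a member. Matching the identifiers to RefSeq's gene table gave 0 hits. Where genes overlap or lie antisense to each other, their reads cannot be separated in such counts.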

Additional observations from a re-analysis of the deposited data

How the results depend on the processing

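Of the 15 calls among the 30 genes, 12 held under all 15 alternatives run (9 falls and 3 rises). The other 3, BKA90DRAFT_102674, BKA90DRAFT_135253 and BKA90DRAFT_136761, were each lost in some, and 0 calls changed direction. With library totals 1066 genes fell, 7 members rose, 6 aldehyde and alcohol dehydrogenases passed and the members' median log2 fold change was 0.016, where all genes had 0.24. In limma 1056 genes fell on log2(FPKM + 1), 1052 on log2(FPKM + 0.1) and 1071 with no filter, and 6, 6 and 5 aldehyde and alcohol dehydrogenases passed; with no filter 7 members rose. With no filter on counts the members' median was -0.37, and BKA90DRAFT_113610 was called lower (adjusted p = 0.0344 in edgeR). Without each library in turn, 810 to 1534 genes rose and 860 to 1587 fell, 3 to 7 members rose and 9 to 11 fell, and the members' median ran from -0.40 to -0.18; a lone library was taken to vary like the other strain's. The replicate numbers are not said to mark a shared culture or day. Same-numbered libraries deviated with a correlation of -0.112, which cannot settle this with 2 libraries per strain. A replicate block gave 1699 rises and 1670 falls, with 4 and 12 among the members, BKA90DRAFT_137066 being added (edgeR adjusted p = 0.00138). The crossed replicate block, added after seeing the data, gave 1792 and 1755, with 4 and 12 members and 5 aldehyde and alcohol dehydrogenases. Leaving out the scaffolds of the construct rows was not run, since each holds only a row already left out. Genes with under 10 FPKM rest on few counts, which limits the precision of their fold changes.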
